A study of Caenorhabditis elegans with 4 samples.

Results

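The respiratory chain genes of Caenorhabditis elegans were followed in wild-type second-stage (L2) larvae. They were taken by gene symbol from the array's annotation (symbols beginning nuo-, sdha- to sdhd-, ucr-, cox-, cco-, atp-, asb- or asg-, together with gas-1, isp-1, mev-1 and cyc-1), among probes with a single gene. The rule found 33 genes, read by 35 probes of 21632, and used no measured value. Of these, 30 encode subunits of complexes I to V (6, 4, 5, 6 and 9 genes), or paralogs of such subunits. The other 3 (cox-11, cox-15 and cox-17) encode proteins that assemble complex IV and are no subunits of it, although the family is named after the subunits. All 33 were measured on at least 3 arrays and entered the test.

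In all, 4 RNA preparations of wild-type L2 larvae (preps 1 to 4) were each hybridised on a 2-colour array against a mixed wild-type reference RNA. The labels give neither what was mixed in the reference, nor the strain's name, the culture or the dyes. Whether each prep had its own culture is not stated either, so a p-value covers only the spread among these preps, part of which may be technical, and no spread of the reference. Values are log2 ratios, centred on each array's median, where 1 stands for a doubling. A positive ratio is read as likely higher in L2, since L2 is the second of the channels in the labels. On that reading all 3 measured yolk protein genes and 23 of 24 major sperm protein genes were lower in L2, which has neither yolk synthesis nor sperm. Of 17 body wall muscle marker genes, 8 were higher and 0 lower. In the same test, described below, 9.87% of all features were lower and 4.85% higher.

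Prep 3 stood apart from the rest. Over all probes its ratios correlated with those of the other preps at r = 0.476 to 0.564, while preps 1, 2 and 4 correlated with each other at 0.670 to 0.728. Values without prep 3 are therefore given for the main counts and for most of the genes described. As prep 3 was singled out from these same data, a call gained without it is a description and no independent support. In RNA of whole animals, fewer cells of a type and less RNA per cell cannot be told apart.

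The mitochondrial respiratory chain passes electrons from NADH (complex I) and succinate (complex II) through ubiquinone to complex III and cytochrome c, and on to oxygen at complex IV. The proton gradient built by complexes I, III and IV drives ATP synthesis by complex V. The catalytic and electron-carrying subunits are joined by small accessory subunits, and in C. elegans some subunits are encoded by paralogous genes. Mutants of several of these genes, among them gas-1, mev-1 and isp-1, are classic models of altered lifespan and oxygen sensitivity.

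As a group the respiratory chain genes were slightly above the array median in L2, and few of them passed the test. The median of the 33 mean log2 ratios was 0.42, against 0.01 over all 19941 features tested (genes, plus probes that name no gene or several). Of the 33 genes, 26 (78.8%) had a mean above 0, against 51.1% of all features. With limma and Benjamini-Hochberg adjustment over all features, 3 genes were higher in L2 (ucr-2.2, gas-1 and sdhd-1) and 3 were lower (ucr-2.3, sdha-2 and asb-1). That is 9.09% in each direction, beside 4.85% of all features called higher and 9.87% called lower, so the share called lower is near the background. With mean centring, or with centring within runs of neighbouring probes, the split was 6 higher and 3 lower. Over all features 1235 were higher and 1738 lower with mean centring, and 942 and 1982 with centring in runs. Without these changes the counts were 968 and 1968. Tested against a fold of 1.5 in place of 0, none of the 6 passed (adjusted p from 0.0776 for ucr-2.3 to 1 for sdhd-1, with 2 higher and 3 lower at an unadjusted p under 0.05). The median of the genes was 0.45 without prep 3, with 25 of 32 means above 0, and 0.45 without prep 2. It was 0.26 without prep 1 and 0.28 without prep 4, with 23 of 32 means above 0 in each case.

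The preps differed in level. In prep 1, 28 of 33 genes lay above 0, with a median of 0.68. In prep 4, 27 of 33 did, with a median of 0.48. Preps 2 and 3 were closer to the array median, with 20 of 32 and 19 of 33 genes above 0 and medians of 0.16 and 0.14. The same sign was seen on all 4 arrays for 15 of the 33 genes (45.5%), beside 41.1% of all features.

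**Figure D1:**
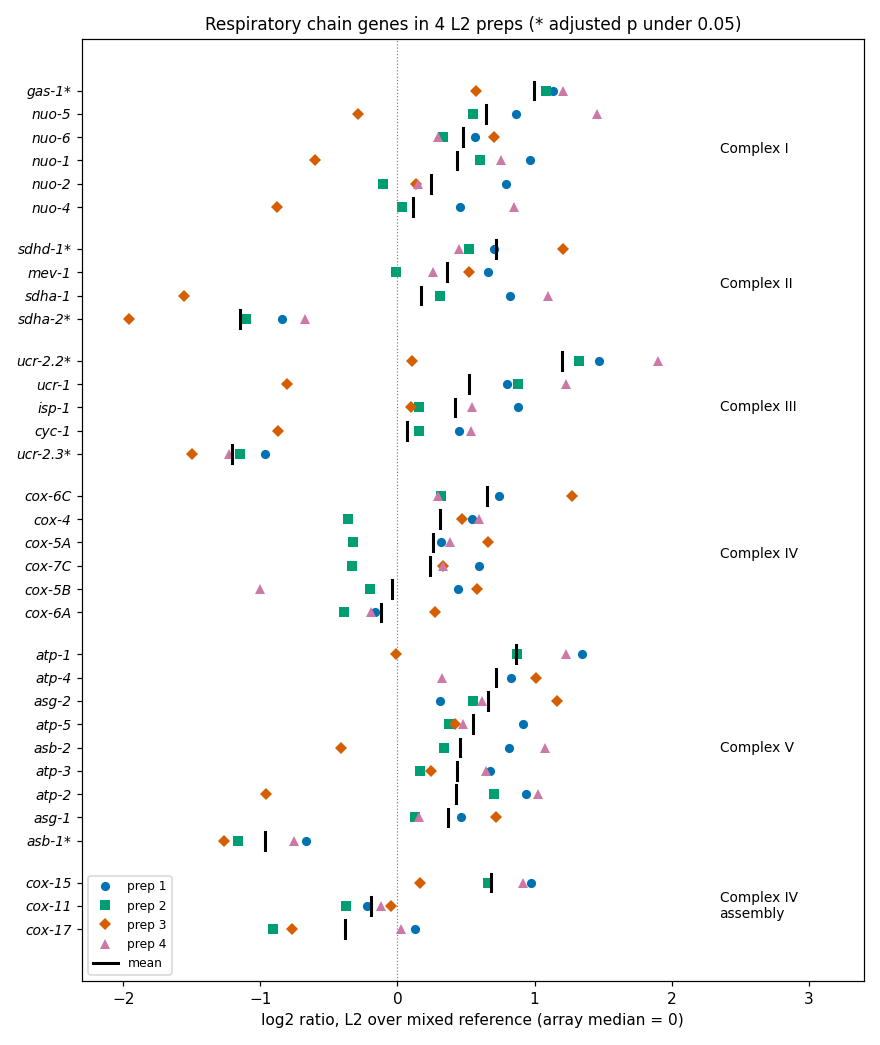
Log2 ratio (L2 over mixed reference, x axis, array median at 0) of each of the 33 genes (y axis) by complex, with 1 symbol per prep and a black bar at the mean. Asterisks mark the 6 genes past an adjusted p of 0.05; ucr-2.3, sdha-2 and asb-1 lie left of 0 in every prep, and prep 3 lies at the far left for many catalytic subunits and at the far right for cox-6C, sdhd-1 and asg-2.

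Complex I, the NADH dehydrogenase, had 6 genes within the symbol rule. Another 17 lay outside it, 14 of them with a mean above 0, and are described at the end. The 6 genes of the rule all had a mean above 0, with a median of 0.45, and 1 of them rose. This was gas-1, a core subunit of the electron-transfer arm whose mutant is hypersensitive to volatile anaesthetics. Its log2 ratios were 1.14, 1.08, 0.57 and 1.21 in preps 1 to 4, so that prep 3 was the lowest and every prep was above 0. The mean was 1.00 ± 0.29 (SD, n = 4; SE 0.17), a 2.00-fold higher level (limma, adjusted p = 0.013). Leaving out prep 1, 2 or 4 cost gas-1 its call (adjusted p = 0.064, 0.0577 and 0.0567 in turn), while without prep 3 the mean was 1.14 ± 0.06 (adjusted p = 0.0105).

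The other complex I genes of the symbol rule did not pass over 4 preps. The gene of an iron-sulphur core subunit, nuo-5, was at 0.86, 0.55, -0.29 and 1.46. For nuo-1, which encodes the NADH-binding subunit, the ratios were 0.97, 0.60, -0.60 and 0.75. Both were above 0 in preps 1, 2 and 4 and below 0 in prep 3. Their means were 0.65 ± 0.73 and 0.43 ± 0.70 (n = 4; limma adjusted p = 0.167 and 0.315), and without prep 3 both passed, at 0.96 ± 0.46 (adjusted p = 0.0439) and 0.77 ± 0.18 (adjusted p = 0.0324). With array weights over 4 preps nuo-5 passed as well (adjusted p = 0.0445). The accessory subunit gene nuo-4 had the same shape (0.45, 0.03, -0.88 and 0.85) and did not pass without prep 3 (0.44 ± 0.41, adjusted p = 0.195). The small accessory subunit gene nuo-6 varied little, at 0.57, 0.33, 0.70 and 0.30, with prep 3 the highest. The mean of nuo-6 was 0.47 ± 0.19 (adjusted p = 0.0878). The core subunit gene nuo-2 was highest in prep 1 (0.79, -0.10, 0.14 and 0.15; adjusted p = 0.408).

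Complex II, succinate dehydrogenase, is also an enzyme of the tricarboxylic acid cycle, and its 4 measured genes went apart. The membrane anchor gene sdhd-1 was at 0.70, 0.52, 1.21 and 0.45, above 0 throughout and highest in prep 3. It rose by 0.72 ± 0.34 (SE 0.18; 1.65-fold, adjusted p = 0.0441), and lost its call without any of the preps (adjusted p from 0.0632 to 0.136). The other anchor gene, mev-1, whose mutant is sensitive to oxygen, was at 0.66, -0.01, 0.52 and 0.26 and did not pass (0.36 ± 0.30, adjusted p = 0.204). The catalytic flavoprotein is encoded by the paralogs sdha-1 and sdha-2. The ratios of sdha-1 were 0.82, 0.31, -1.56 and 1.1, the widest range of the 33 genes, with prep 3 alone below 0. Its mean was 0.17 ± 1.2 (adjusted p = 0.806), and 0.75 ± 0.40 without prep 3 (adjusted p = 0.0657). In contrast, sdha-2 was below 0 in every prep, at -0.84, -1.1, -1.95 and -0.68. It fell to a mean of -1.15 ± 0.57 (SE 0.24; 2.21-fold lower, adjusted p = 0.0242), a call that ended without prep 1 (adjusted p = 0.0629) or 2 (0.0842). Without prep 3 it was at -0.88 ± 0.22 (adjusted p = 0.0263).

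Complex III hands electrons from ubiquinol to cytochrome c, and it held both the highest and the lowest mean of the 33 genes. These belong to paralogs of the same core subunit, ucr-2.2 and ucr-2.3. In ucr-2.2 the log2 ratios were 1.47, 1.33, 0.11 and 1.9, above 0 in each prep and near 0 in prep 3. The mean was 1.2 ± 0.77 (SE 0.29; 2.3-fold higher, adjusted p = 0.0399). It missed the threshold when prep 1, 2 or 4 was left out (adjusted p = 0.132, 0.134 and 0.116 in turn), with scale normalization (0.0634) and with quantile normalization (0.051). Without prep 3 the mean of ucr-2.2 was 1.57 ± 0.30 (adjusted p = 0.00858). The paralog ucr-2.3 was at -0.96, -1.15, -1.50 and -1.23, all below every value of ucr-2.2. It fell to -1.21 ± 0.22 (SE 0.16; 2.31-fold lower, adjusted p = 0.00551) and was the only one of the 6 called genes to keep its call with each prep left out in turn.

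The other complex III genes were the core protein gene ucr-1, the Rieske iron-sulphur protein gene isp-1 and the cytochrome c1 gene cyc-1. In ucr-1 the preps read 0.80, 0.88, -0.81 and 1.23, with prep 3 again the only value below 0. The mean was 0.53 ± 0.91 (adjusted p = 0.316), and without prep 3 ucr-1 rose by 0.97 ± 0.23 (adjusted p = 0.021). The isp-1 gene, whose mutant is long-lived, was above 0 in each prep (0.88, 0.15, 0.10 and 0.54) and did not pass (0.42 ± 0.36, adjusted p = 0.175; without prep 3, 0.52 ± 0.36, adjusted p = 0.127). For cyc-1, values of 0.45, 0.16, -0.87 and 0.54 gave a mean of 0.07 ± 0.65 (adjusted p = 0.871), which was 0.38 ± 0.20 without prep 3 (adjusted p = 0.161). With a robust fit over all 4 preps ucr-1 just passed (0.80, adjusted p = 0.05 after rounding).

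Complex IV, cytochrome c oxidase, was measured through 6 nuclear genes of its small subunits, and 0 of them passed in either direction with limma, also under each of the 17 alternatives. At an unadjusted p under 0.05, 1 of the 6 was higher and 0 were lower, beside 2744 and 3699 of all 19941 features. The highest was cox-6C, at 0.74, 0.32, 1.27 and 0.29, with every prep above 0 and a mean of 0.66 ± 0.46 (adjusted p = 0.0812), or 0.45 ± 0.25 without prep 3 (adjusted p = 0.13). The genes cox-4, cox-5A and cox-7C shared a pattern of preps 1, 3 and 4 above 0 and prep 2 below it, with means of 0.31 ± 0.45, 0.26 ± 0.41 and 0.23 ± 0.40. For cox-4 the values were 0.54, -0.36, 0.47 and 0.59. The remaining genes had means near 0, cox-5B at -0.04 ± 0.72 with prep 4 lowest (-1.0), and cox-6A at -0.12 ± 0.28 over its 2 probes. The sign of cox-5B turned with mean centring (0.02) and without prep 2 (0.01) or 4 (0.28). Without prep 3 the means of cox-5A, cox-5B and cox-6A were 0.13 ± 0.39, -0.25 ± 0.72 and -0.25 ± 0.12. Complex IV had its lowest median in prep 2 (-0.33, with 5 of 6 genes below 0) and its highest in prep 3 (0.53, with all 6 genes above 0).

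Among the proteins that assemble complex IV, cox-15, an enzyme of haem A synthesis, was at 0.97, 0.66, 0.17 and 0.92. Its mean was 0.68 ± 0.37 (adjusted p = 0.0566), just short of the threshold, and it passed without prep 3 (0.85 ± 0.17, adjusted p = 0.0246). It also passed over 4 preps without centring, with mean centring, with centring in runs, with array weights and with the month of the array as a block (adjusted p from 0.0164 to 0.049). The copper delivery genes cox-11 and cox-17 had means of -0.19 ± 0.14 and -0.38 ± 0.53 (adjusted p = 0.408 and 0.289).

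Complex V, the ATP synthase, had 8 of 9 genes with a mean above 0 and a median of 0.45. None of these 8 passed with limma over 4 preps. At an unadjusted limma p under 0.05, 5 of them were higher, beside 2744 of all 19941 features. With the month of the array as a random block, 3 of them passed, namely asg-2 (adjusted p = 0.0428), atp-1 (0.0437) and atp-5 (0.0481). That fit rests on a negative correlation within the month (-0.133), estimated from 2 arrays per month. With it, the features called higher over the whole array went from 968 to 1376. The gene of the alpha subunit of the catalytic head, atp-1, was at 1.35, 0.87, -0.01 and 1.23. Its mean was 0.86 ± 0.61 (adjusted p = 0.0643), and 1.15 ± 0.25 without prep 3 (adjusted p = 0.0146). The beta subunit gene atp-2 was at 0.94, 0.71, -0.96 and 1.03, so that prep 3 lay on the other side of 0 from the close group of the other preps. Over 4 preps atp-2 had a mean of 0.43 ± 0.93 (adjusted p = 0.416), and without prep 3 it rose by 0.89 ± 0.17 (adjusted p = 0.022). The stalk genes atp-3, atp-4 and atp-5 were above 0 in each prep with a value. They had means of 0.43 ± 0.27, 0.72 ± 0.36 (n = 3, as atp-4 had no value in prep 2) and 0.55 ± 0.25, with adjusted p = 0.13, 0.0793 and 0.0705. Without prep 3, atp-3 was at 0.50 ± 0.29 (adjusted p = 0.118) and atp-5 at 0.59 ± 0.29 (adjusted p = 0.0805), and atp-4 had too few values to be tested. Array weights and centring in runs brought atp-1 (adjusted p = 0.014 and 0.0384) and atp-5 (0.0374 and 0.0282) past the threshold. The membrane subunit g genes asg-1 and asg-2 were above 0 in all 4 preps, with means of 0.37 ± 0.28 and 0.66 ± 0.36 (adjusted p = 0.186 and 0.06), and 0.25 ± 0.18 and 0.49 ± 0.16 without prep 3 (adjusted p = 0.31 and 0.0876). Mean centring brought asg-2 (adjusted p = 0.0477) and atp-5 (0.0499) past the threshold, and scale normalization asg-2 (0.0489). The 2 probes of asg-2 differed most in prep 3, at 1.73 and 0.60, and took opposite signs in prep 1, at 0.82 and -0.19.

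Subunit b of the stalk is encoded by asb-2 and by asb-1, the latter known as the form of the germ line. For asb-2 the preps read 0.81, 0.34, -0.41 and 1.08, with a mean of 0.45 ± 0.65 (adjusted p = 0.271), and 0.74 ± 0.37 without prep 3 (adjusted p = 0.0601). For asb-1 they read -0.67, -1.17, -1.27 and -0.76, below 0 in each. It fell to -0.96 ± 0.30 (SE 0.17; 1.95-fold lower, adjusted p = 0.0152), and its call ended without prep 2 (adjusted p = 0.0668). Without prep 3 asb-1 was at -0.86 ± 0.27 (adjusted p = 0.0311).

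All 3 genes that fell were paralogs of another member whose mean was above 0, and the difference within each array had the same sign in each prep. The ratio of ucr-2.2 exceeded that of ucr-2.3 by 2.43, 2.48, 1.6 and 3.13 in preps 1 to 4, a mean of 2.41 ± 0.63 on the log2 scale. The ratio of asb-2 exceeded that of asb-1 by 1.48, 1.51, 0.85 and 1.83, a mean of 1.42 ± 0.41. The difference between sdha-1 and sdha-2 was 1.67, 1.42, 0.40 and 1.78, a mean of 1.31 ± 0.63. In each of these pairs prep 3 had the smallest difference. Without prep 3 the means of the differences were 2.68, 1.61 and 1.62. In the fourth pair, asg-1 was above asg-2 by 0.15 in prep 1 and differed by -0.42, -0.45 and -0.46 in the others, a mean of -0.29 ± 0.30. An exact two-sided sign-flip permutation test gave p = 0.25 for asg-1 and asg-2 (n = 4), and for the other 3 pairs the smallest p that 4 preps allow. All 4 pairs measured were compared, and that smallest p lies above 0.05, so no pair could pass this test. Whether the probes of paralogs read each other's RNA was not tested.

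**Figure D2:**
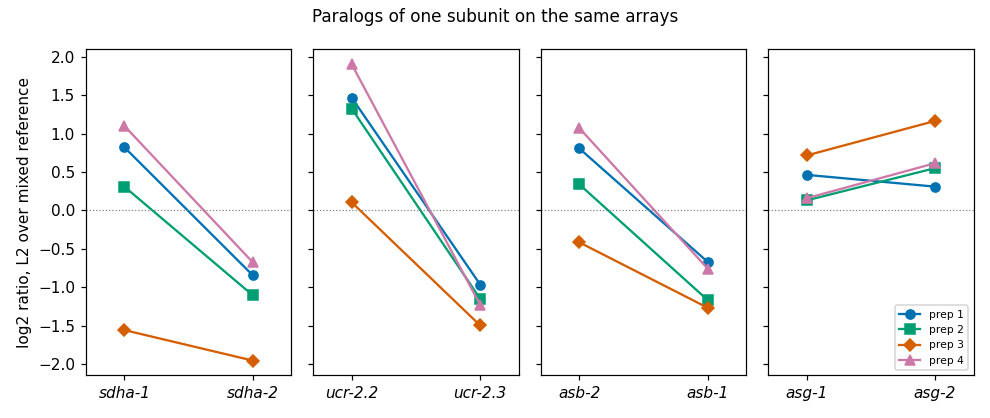
Log2 ratio (L2 over mixed reference, y axis) of paralogs of the same subunit, with a line for each prep joining the values on the same array. The lines fall in all 4 preps for sdha-1 to sdha-2, ucr-2.2 to ucr-2.3 and asb-2 to asb-1, and cross for asg-1 and asg-2.

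Genes of the germ line and oocyte were low beside these paralogs. Of 24 such marker genes measured, 17 fell (70.8%, beside 9.87% of all features) and 0 rose, and each of the 24 had a mean below 0. Their median was -1.99 and ranged from -2.31 (prep 2) to -1.66 (prep 1). Their part in the low values of asb-1, sdha-2 and ucr-2.3 was not tested.

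The preps differed in which subunits were high. In prep 3, all 5 genes of complex III (ucr-1, ucr-2.2, ucr-2.3, isp-1 and cyc-1) lay below their values in the other 3 preps. So did gas-1, nuo-1, nuo-4 and nuo-5 of complex I, sdha-1 and sdha-2 of complex II, and atp-1, atp-2, asb-1 and asb-2 of complex V, besides cox-15. The largest drops were those of sdha-1 (prep 3 below the mean of the others, a difference of -2.3), atp-2 (-1.85) and ucr-1 (-1.78). Other genes went the other way. All 6 genes of complex IV were higher in prep 3 than the mean of the other preps, by 0.13 (cox-7C) to 0.83 (cox-5B). Prep 3 was the highest of all for cox-5A, cox-5B, cox-6A and cox-6C of these, and for nuo-6, sdhd-1, atp-4, asg-1, asg-2 and cox-11. In total 16 of 33 genes (48.5%) had prep 3 below all other preps, beside 29.1% of all features. In 10 (30.3%) it lay above them, no more than the 34.2% of all features. Of the 17 complex I genes outside the symbol rule, 3 (17.6%) were lowest in prep 3 and 5 (29.4%) were highest. This is a description of 1 array against 3, with no test.

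**Figure D3:**
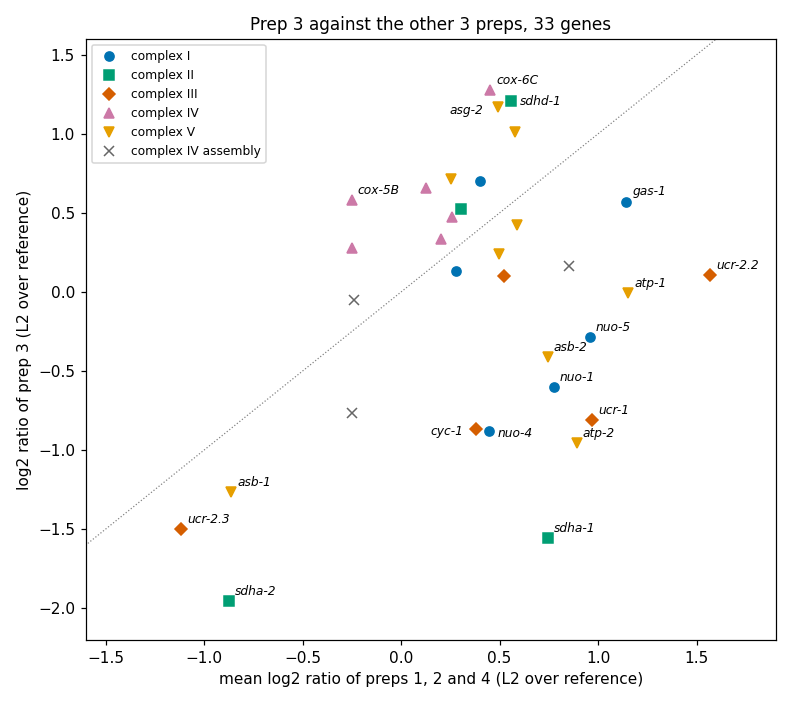
Log2 ratio in prep 3 (y axis) against the mean of preps 1, 2 and 4 (x axis) for the 33 genes, with symbols by complex and the dotted line marking equal values. Complex III lies below the line and complex IV above it; sdha-1 is farthest from the line, at 0.75 in the other preps and -1.56 in prep 3.

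The low values of prep 3 were shared by enzymes of the tricarboxylic acid cycle, which feeds electrons to the chain. Of 23 genes of the cycle and its entry and side reactions, 18 (78.3%) had prep 3 below all other preps and 0 had it above them. Over all features these shares were 29.1% and 34.2%. The median of the 23 genes was -0.45 in prep 3 and 0.37 to 0.84 in the others. Among 20 further genes of oxidative phosphorylation, described below, the pattern was not shared, with 7 (35%) lowest in prep 3 and 9 (45%) highest. Over 4 preps 4 of the 23 rose (17.4%) and 1 fell (4.35%), beside 4.85% and 9.87% of all features. The highest were suca-1, a succinyl-CoA ligase subunit (1.73 ± 0.63, adjusted p = 0.00765), and the cytosolic aconitase gene aco-1 (1.29 ± 0.39, adjusted p = 0.0082). Without prep 3, 10 of 22 genes of the cycle rose and 1 fell, beside 7.07% and 9.55% of all features. The median of these genes was then 0.68. The gene that fell over 4 preps was icl-1, which holds the glyoxylate shunt enzymes (-1.28 ± 0.80, adjusted p = 0.0368). Body wall muscle markers, from a tissue rich in mitochondria, also had their lowest median in prep 3, at 0.67 against 1.54 to 1.64. Of the 17, 10 (58.8%) lay below all other preps there, beside 29.1% of all features. Another 6 (35.3%) lay above them, near the 34.2% of all features. Of the intestine markers, 9 of 16 (56.2%) were lowest in prep 3 and 2 (12.5%) were highest, with a median of 0.03 there and 0.29 to 0.85 in the others. Of the pharynx markers, 5 of 10 (50%) were lowest and 3 (30%) highest, with a median of 0.34 there and 0.77 to 1.28 in the others. All 24 sperm genes were higher in prep 3 than the mean of the other preps, 14 of them (58.3%) above each of the others. Their median was -3.55, -3.93, -2.57 and -2.78 in preps 1 to 4, so prep 4 lay near prep 3. The part of these tissues in the pattern was not tested.

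Cytosolic ribosomal protein genes went the other way, with 34 of 60 (56.7%) highest in prep 3, beside 34.2% of all features. Their median was 1.06 there, against 0.28 to 0.90 in the others. Mitochondrial ribosomal protein genes, whose products also work in mitochondria, had similar medians in all preps (0.31 to 0.51). Of 44 such genes, 10 (22.7%) were lowest in prep 3 and 19 (43.2%) highest, beside 29.1% and 34.2% of all features. Over 4 preps 11 of 45 mitochondrial ribosomal genes (24.4%) rose and 1 fell (2.22%), with a median of 0.45 close to the 0.42 of the respiratory chain genes. Of 61 cytosolic ones, 18 (29.5%) rose and 0 fell. Of all features, 4.85% were called higher and 9.87% lower. Without prep 3, 8 of 43 mitochondrial and 11 of 61 cytosolic ribosomal genes rose, beside 7.07% of all features. With prep 1, 2 or 4 left out the counts were 1, 2 and 3 mitochondrial and 1, 9 and 5 cytosolic genes. Over all features 285, 325 and 492 then rose.

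**Figure D4:**
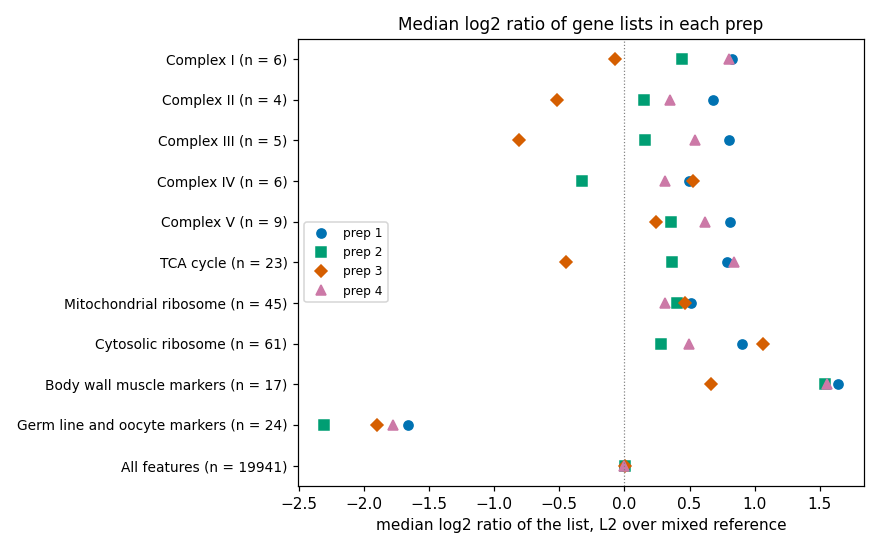
Median log2 ratio (L2 over mixed reference, x axis) of each gene list (y axis, with the number of genes tested), with 1 symbol per prep. Prep 3 is the lowest prep for complexes I, II, III and V, the tricarboxylic acid (TCA) cycle and the muscle markers, and the highest for complex IV and the cytosolic ribosome. Complex I here is its 6 genes within the symbol rule. The 17 outside it, not drawn, had a median of 0.35 in prep 3 and 0.10 to 0.48 in the others.

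Without prep 3, 8 of the 32 respiratory chain genes then tested rose (gas-1, nuo-1, nuo-5, ucr-1, ucr-2.2, atp-1, atp-2 and cox-15) and the same 3 fell, beside 7.07% and 9.55% of all features. In each of the 8, prep 3 was the lowest value, so leaving it out was bound to raise the mean. The gene that lost its call without prep 3 was sdhd-1. With prep 1, 2 or 4 left out instead, 0 genes rose in each case with limma, while 6, 13 and 9 were higher at an unadjusted p under 0.05. Calls also fell over the whole array in these fits. There 285 of 19321, 325 of 19395 and 492 of 19421 features rose, beside 968 of 19941 with all preps.

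A list of 35 further genes of oxidative phosphorylation covered cytochrome c, carriers, ubiquinone synthesis, assembly proteins and mitochondrially encoded subunits. Of the 35, 20 were measured and tested, and none of the mitochondrially encoded subunits was among them. Of the 20, 1 rose (5%) and 2 fell (10%), near the 4.85% and 9.87% of all features, with a median of 0.06. Without prep 3, 2 rose and 2 fell, beside 7.07% and 9.55% of all features. With prep 1, 2 or 4 left out 0, 0 and 1 rose and 0 fell in each case. Over all features 285, 325 and 492 then rose, and 872, 879 and 1207 fell. The copper chaperone gene sco-1, which serves complex IV, was at 0.97, 1.12, 0.92 and 0.48 and rose by 0.87 ± 0.28 (adjusted p = 0.0198). The complex I assembly gene nuaf-1 fell to -0.84 ± 0.17 (adjusted p = 0.0162). Of the cytochrome c genes, cyc-2.2 fell to -0.98 ± 0.50 (adjusted p = 0.0307), with values of -1.58, -1.19, -0.47 and -0.69, and its paralog cyc-2.1 was at 0.29 ± 0.20 (adjusted p = 0.25).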

How the data were processed

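The deposited file holds log2 ratios of the 2 channels of each array, made by the authors. The base follows from the values: raised as powers of 2, all those under 0.9 (100% on each array) were whole thousandths to a tolerance of 0.05. The arrays came with medians near 0 (0.0158, 0.058, 0.0552 and 0.0186 for preps 1 to 4). Scanner, background correction, normalization, spot filters and dyes are not known here, so direction is likely rather than settled. No intensities were used: dim spots could not be filtered, and the number of arrays limits the precision.

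Genes were assigned to probes by the platform's own annotation, with 16450 probes of 1 gene, 247 of several and 4935 unnamed. All 33 members matched RefSeq (WBcel235) by gene ID under the same symbol. Coordinates and sequences are not printed, as the array's build is not known here.

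Arrays were centred on their median and probes of a gene averaged. Features on at least 3 arrays entered limma (version 3.58.1, under R 4.3.3; lmFit, then eBayes), which tested the mean against 0, two-sided, adjusted over 19941 features, with a threshold of 0.05. The fit was tested on simulated data. Paralogs were compared by an exact sign-flip permutation test. Every member may be named; of other pathway genes, up to 2 of the highest and 2 of the lowest past the threshold, with paralogs. Complex I genes outside the symbol rule were named after their values were seen. The members and lists were chosen with earlier results of these data known. Figures were drawn in matplotlib 3.10.9 from tables read by pandas 2.3.3 (Python 3.11.15). The 17 alternatives concerned centring, normalization, weights, robust fitting, a fold of 1.5, array minimums, single probes, ratios above 6 in size, the month of the array as a block, and single preps left out.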

Additional observations from a re-analysis of the deposited data

Results flagged for a closer look

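For 2 of the 32 genes with values in all 4 preps, a prep lay far from the rest by Dixon's test, where chance alone would mark about 1 in 20 groups. The ATP synthase beta subunit gene atp-2 was at -0.96 in prep 3, with the other preps between 0.71 and 1.03. The complex IV subunit gene cox-4 was at -0.36 in prep 2, with the others between 0.47 and 0.59.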

How the results depend on the processing

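The 3 genes that fell kept that count under each alternative except 3: it was 0 against a fold of 1.5 (3 at an unadjusted p under 0.05), 2 without prep 1 and 1 without prep 2. The 3 that rose became 6 with mean centring and with centring in 32 runs of neighbouring probes, 7 with array weights, 7 with the month as a block and 0 against a fold of 1.5 (2 unadjusted). Leaving out single preps gave 0 to 8 rises and 1 to 3 falls, and over all features 285 to 1362 rises and 872 to 1840 falls, beside 968 and 1968 with all preps. Over all features 1235 rose with mean centring, 942 with centring in runs, 1671 with array weights and 1376 with the month as a block. Against a fold of 1.5, 149 of all features rose and 503 fell. The causes were not tested. No member called in any fit changed sign, and the differences between paralogs kept their sign and stayed within 1 SD in the settings tried. The month was read from what look like dates in the array titles, with preps 1 and 2 in 1 month and the other preps in another. This month (2 arrays each, L2 only) gave a consensus correlation of -0.133 within it. No paired analysis was possible because the labels hold 1 group, so that no replicate number is shared between groups; paralogs were compared within arrays. Depth cannot be given for arrays without intensities.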

Other observations

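The platform also carried 17 genes with symbols beginning ndua-, ndub-, nduf-, ndus- or nduv-, which encode further complex I subunits and lie outside the symbol rule. They were listed after the values had been seen and are given as a description. Their median was 0.31, with 14 of 17 means above 0. With limma 1 rose (5.88%, beside 4.85% of all features) and 0 fell. This was ndus-8, a core iron-sulphur subunit gene, at 1.02, 0.89, 0.74 and 0.79 in preps 1 to 4 (mean 0.86 ± 0.12, adjusted p = 0.0131). In prep 3, where nuo-1, nuo-4 and nuo-5 were below 0, the median of these genes was 0.35, with 3 of 17 at their lowest and 5 at their highest. The 3 genes named next did not pass and were chosen after their values were seen. The highest prep 3 values were those of ndua-7 (1.22, against 0.41 to 0.62 in the others), ndua-5 (1.11, against -0.20 to 0.10) and ndua-2 (1.05, against -0.87 to -0.33), with adjusted p = 0.0508, 0.551 and 0.632 in turn.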
